A study of Homo sapiens with 59 samples.

Results

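The comparison described here set A549 cells given a middle dose of a Bupleuri Radix extract against A549 cells given the vehicle. A549 is an established human lung carcinoma cell line with features of alveolar epithelium. Bupleuri Radix is the dried root of Bupleurum, used in East Asian medicine, and the labels describe a 70% ethanol extract. Members were chosen by their library codes: the 3 libraries of the 38 µg/mL dose and the 3 vehicle libraries, 6 of 59 libraries in the series. All were collected after 24 h and measured by RNA sequencing. The 3 medium-dose libraries were set beside 3 libraries each of the same extract at 7.6 µg/mL (low) and 190 µg/mL (high), which carried the same set number in their codes (a number the labels do not explain), and beside 3 libraries of Aconiti Lateralis Radix Preparata, an aconite root preparation, at its low dose of 20 µg/mL, from that same library set. The vehicle was DMSO without extract, and its libraries carried a different set number. The sample labels and the series text give different DMSO contents, so none is stated. The lower doses were dilutions of a high dose that was set by toxicity to the cells. The labels do not say whether the 3 libraries of a group came from separate cultures. The p-values therefore measure only the spread between these libraries.

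Bupleurum root is known chiefly for saikosaponins, triterpene glycosides that interact with cholesterol-containing membranes, and it also holds flavonoids and other plant phenolics. Plant phenolics are frequent ligands of the aryl hydrocarbon receptor (AhR), a cytosolic transcription factor that moves to the nucleus when bound, pairs with ARNT and induces CYP1 enzymes and its own repressor. Lysosomal stress is sensed separately, through TFEB and TFE3, which switch on lysosomal genes, while SREBP2 switches on cholesterol synthesis when sterol in the endoplasmic reticulum runs low.

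Library totals of the 6 libraries were 21607241, 24121093 and 33916646 counts in medium-dose libraries and 25251059, 27975489 and 19320259 counts in vehicle libraries. The 12 libraries of the fit ranged from 19320259 to 33916646. Levels below are CPM, counts scaled to library size with TMM factors, which allow for library composition, and means are given ± SD over the 3 libraries of a group. A gene is called changed where edgeR's quasi-likelihood test gave an adjusted p below 0.05. Mitochondrial mRNA made up 6.67 to 8.15% of counts in medium-dose libraries and 5.55 to 6.19% in vehicle libraries. Epithelial keratins were abundant and lung-specific genes were not: KRT8 averaged 3378 ± 155 CPM in medium-dose libraries and 3525 ± 74.5 CPM in vehicle libraries, whereas the surfactant gene SFTPA1 and the secretory gene SCGB3A2 were at 0 in all 6 libraries. Of 12 markers of immune, endothelial, stromal and liver cells, PTPRC, CD3E and MS4A1 were at 0 in all 6, and the list summed to 10.97 to 12.53 CPM in medium-dose libraries and 8.04 to 8.85 CPM in vehicle libraries.

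Against vehicle, 2053 of 16439 tested genes were called, or 12.5%, of which 955 (5.81%) rose and 1098 (6.68%) fell. Changes were small: the median size among called genes was 0.24 on the log2 scale, or 1.18-fold, and 159 called genes (7.74%) passed 1.5-fold. For 2002 of the 2053 the 3 medium-dose and 3 vehicle values did not overlap; over all tested genes 32.3% did not overlap. Against the low dose of the same extract, no gene was called with edgeR (505 genes, 3.07%, at an unadjusted p below 0.05, and 2 called with DESeq2). Against the low dose of the aconite preparation, no gene was called with edgeR (843 genes, 4.88%, at an unadjusted p below 0.05, and 4 called with DESeq2). The low dose itself differed from vehicle at 2001 genes (12.2%), 876 of them higher (5.33%) and 1125 lower (6.84%). The high dose differed from vehicle at 4311 genes (26.2%), 2208 higher (13.4%) and 2103 lower (12.8%). The aconite preparation's low dose differed from vehicle at 1679 genes (9.71%), 728 higher (4.21%) and 951 lower (5.5%). These comparisons share the vehicle libraries. The vehicle libraries stand outside the library set that holds all doses of both extracts, so extract and library set cannot be told apart in any comparison with vehicle. In bulk RNA, a smaller number of cells of some kind and less RNA per cell cannot be told apart either. How many genes were called also changed with the libraries fitted. Leaving out single libraries gave 804 to 1613 calls, the fewest without medium-dose replicate 3 (804), vehicle replicate 2 (982) and vehicle replicate 3 (1219). A fit over all 59 libraries called 1 of 18568 tested genes, and one over 55 libraries called 608 of 18339. The cause was not tested. Every gene named below as risen or fallen at the medium dose against vehicle is a call of the 12-library fit. Each lost its call in the fit over all 59.

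**Figure D1:**
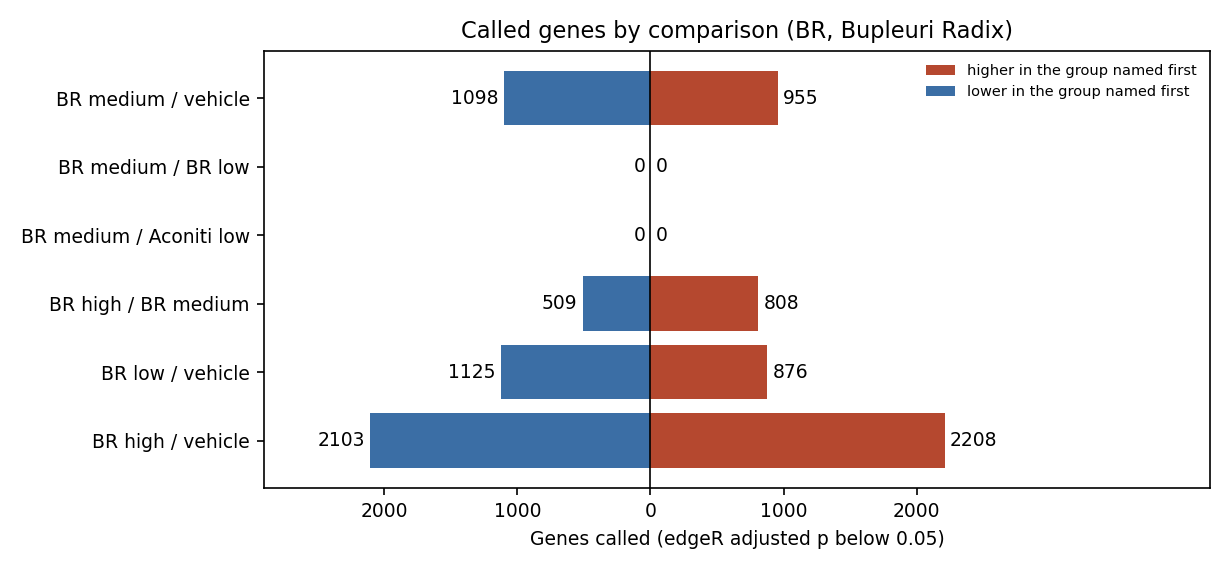
Number of genes called higher (right, red) or lower (left, blue) in the group named first, for 6 comparisons, with the genes called by edgeR on the x axis. The medium dose gave 955 higher and 1098 lower genes against vehicle and none in either direction against the low dose or the aconite preparation; the high dose against the medium dose gave 808 higher and 509 lower.

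Targets of AhR were raised against vehicle, and CYP1B1 among them was also higher than at the low dose in every library. Of 6 tested members, 4 rose against vehicle and none fell, where 5.81% of all genes were called higher, and the list's median log2 fold change was 0.32 beside 0.0084 over all genes. CYP1B1 measured 71.8, 72.2 and 72.2 CPM in medium-dose libraries and 58.7, 55.3 and 53.2 CPM in vehicle libraries. No vehicle value reached the lowest medium-dose value, and the difference was a log2 fold change of 0.37 ± 0.042 (SE), edgeR adjusted p = 0.000223, or 1.29-fold. CYP1B1 (chr2:38066973-38109902, minus strand, GRCh38) encodes a cytochrome P450 that hydroxylates steroids and polycyclic hydrocarbons and is an established readout of AhR activity. AHRR measured 4.04, 3.92 and 4.04 CPM in medium-dose libraries and 2.79, 2.57 and 2.22 CPM in vehicle libraries. AHRR, the AhR repressor, likewise had no overlap between the groups (log2 fold change of 0.65 ± 0.14 (SE), edgeR adjusted p = 0.00626). TIPARP, a mono-ADP-ribosyltransferase that dampens AhR signalling, had 39.9, 38.2 and 38.0 CPM in medium-dose libraries and 35.4, 32.7 and 33.0 CPM in vehicle libraries (log2 fold change of 0.20 ± 0.053 (SE), edgeR adjusted p = 0.0235). ALDH3A1, an aldehyde dehydrogenase, had 817, 832 and 858 CPM in medium-dose libraries and 665, 646 and 755 CPM in vehicle libraries (log2 fold change of 0.28 ± 0.050 (SE), edgeR adjusted p = 0.00275). CYP1A1, the classic inducible target, was low at 1.56, 1.43 and 1.01 CPM in medium-dose libraries and 0.905, 0.741 and 0.620 CPM in vehicle libraries and did not pass (edgeR adjusted p = 0.0752). NQO1 had a log2 fold change of -0.083 (edgeR adjusted p = 0.308). With the 55 libraries 2 of the list were called, and with single libraries left out 3 or 4 were.

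Across doses, CYP1B1 averaged 55.7 ± 2.75 CPM in vehicle, 61.4 ± 1.45 at the low, 72.1 ± 0.185 at the medium and 123 ± 1.08 at the high dose. AHRR averaged 2.53 ± 0.288, 2.96 ± 0.333, 4.00 ± 0.0680 and 5.70 ± 0.778 CPM in the same order. TIPARP averaged 33.7 ± 1.51, 34.8 ± 1.04, 38.7 ± 1.05 and 64.9 ± 3.78 CPM. Each mean was higher than the one before it for these 3 genes, out of 6 tested members of the list. Dose means of the other tested members, ALDH3A1, CYP1A1 and NQO1, are not given here. Over the 6 members, 2 were called higher at the low dose against vehicle and 4 at the high against the medium dose. None of the 6 was called at the medium against the low dose, where the list's median log2 fold change was 0.188. Vehicle and low-dose values overlapped for AHRR and TIPARP and did not for CYP1B1. Medium-dose values lay above every low-dose value for CYP1B1, AHRR and TIPARP, though edgeR called no gene in that step in the 12-library fit. These genes were named for calls against vehicle that rest on the same medium-dose libraries. Their lack of overlap with the low dose is therefore not independent evidence of a step. Over all tested genes, 7.88% did not overlap between the medium and low doses. The step between medium and high dose was called for all 3 of these genes, with a log2 fold change of 0.77 for CYP1B1, 0.50 for AHRR and 0.75 for TIPARP.

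Start regions of 2 of these genes are printed because they hold the letters of the core that the AhR and ARNT pair is known to bind. The core searched was GCGTG on both strands (CACGC on the other), which occurs in 36.5% of 35116 promoter windows of 300 bases in the RefSeq table of build GRCh38.p14. Of the 7 windows of the 4 list members in that table (AHRR, CYP1A1, NQO1 and TIPARP), 5 held it (71.4%), at least 1 for each gene. The windows without it belong to TIPARP, and the window printed for each gene is the one with the most cores. No window of CYP1B1 was used here. Capitals mark the core in each line, and each window runs from 250 bases before to 50 bases after an annotated transcript start.
AHRR, chr5:322360-322659, plus strand, 2 cores: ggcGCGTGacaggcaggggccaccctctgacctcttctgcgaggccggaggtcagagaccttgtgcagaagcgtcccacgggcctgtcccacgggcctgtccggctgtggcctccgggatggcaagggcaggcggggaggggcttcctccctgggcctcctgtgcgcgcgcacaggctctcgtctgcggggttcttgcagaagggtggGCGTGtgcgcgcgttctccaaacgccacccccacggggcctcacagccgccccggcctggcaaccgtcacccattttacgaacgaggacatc
TIPARP, chr3:156674340-156674639, plus strand, 2 cores: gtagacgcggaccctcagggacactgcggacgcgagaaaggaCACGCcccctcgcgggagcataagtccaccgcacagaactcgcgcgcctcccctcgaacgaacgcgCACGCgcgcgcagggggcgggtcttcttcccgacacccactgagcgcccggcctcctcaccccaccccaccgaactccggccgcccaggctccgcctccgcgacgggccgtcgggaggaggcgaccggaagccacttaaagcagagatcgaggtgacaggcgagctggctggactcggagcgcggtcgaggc

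**Figure D2:**
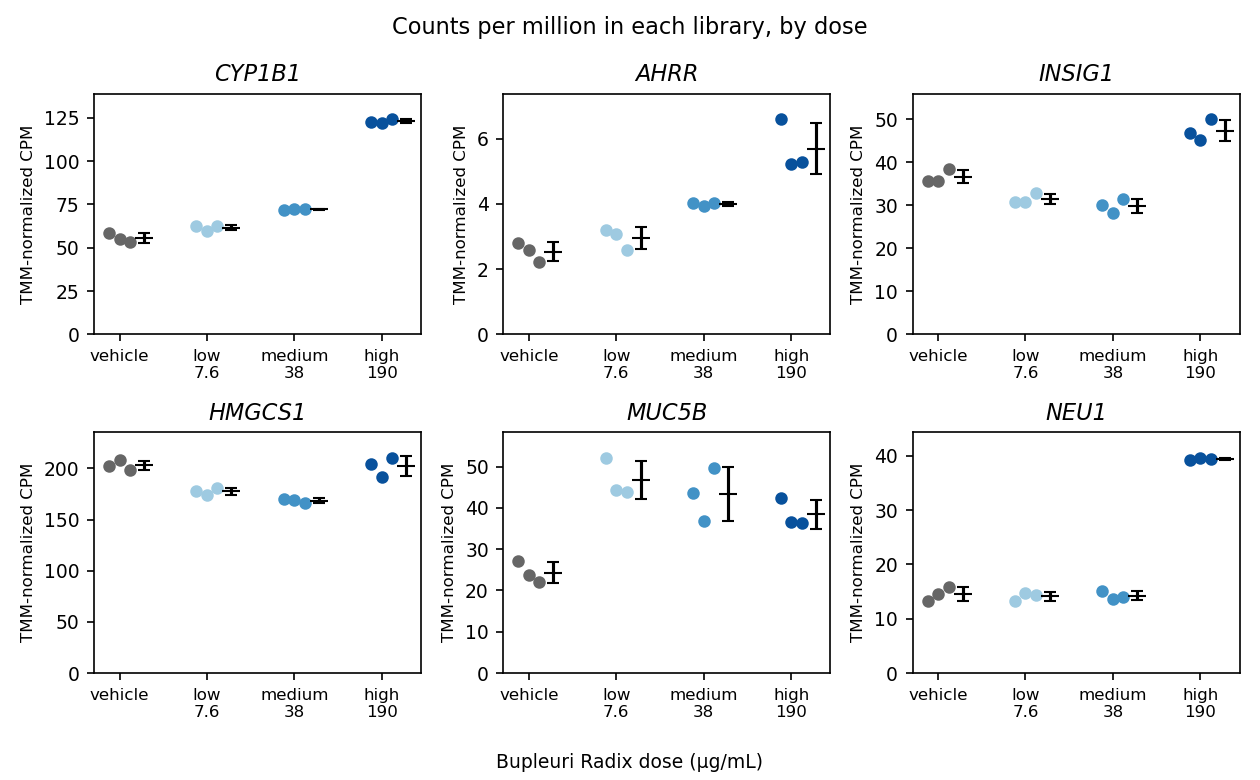
TMM-normalized CPM (y axis, from 0) of 6 genes in every library by Bupleuri Radix dose in µg/mL (x axis), with points for libraries and the bar for mean ± SD of 3. The means of CYP1B1 and AHRR are higher at each dose step, MUC5B sits above vehicle at all doses, INSIG1 and HMGCS1 are lower than vehicle at the low and medium doses, and NEU1 stands apart only at the high dose.

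The gel-forming mucins of the airway were among the largest rises. MUC5B (chr11:1223066-1262172, plus strand, GRCh38), measured 43.7, 36.8 and 49.7 CPM in medium-dose libraries and 27.0, 23.8 and 22.1 CPM in vehicle libraries (log2 fold change of 0.84 ± 0.10 (SE), edgeR adjusted p = 0.000267). MUC5AC (chr11:1157953-1201138), the neighbouring mucin gene, measured 301, 243 and 293 CPM in medium-dose libraries and 189, 172 and 162 CPM in vehicle libraries (log2 fold change of 0.68 ± 0.10 (SE), edgeR adjusted p = 0.000722). Medium-dose values lay above every vehicle value for both mucins, which the rule for naming the largest changes required. At the low dose MUC5B averaged 46.8 ± 4.62 CPM and at the high dose 38.5 ± 3.47 CPM, and neither was called against the medium dose (edgeR adjusted p = 1 and 0.344). MUC5AC averaged 275 ± 43.6 CPM at the low dose, and fell to 220.0 ± 18.4 CPM at the high dose, against 279 ± 31.7 CPM at the medium dose (log2 fold change of -0.34 ± 0.10 (SE), edgeR adjusted p = 0.033). CEBPB, a basic leucine zipper transcription factor of acute-phase and inflammatory genes, measured 81.3, 78.5 and 88.0 CPM in medium-dose libraries and 43.0, 54.2 and 60.8 CPM in vehicle libraries (log2 fold change of 0.66 ± 0.11 (SE), edgeR adjusted p = 0.0019). CITED4, a transcriptional co-regulator, averaged 14.9 ± 2.73 CPM in medium-dose libraries and 7.93 ± 0.751 CPM in vehicle libraries, and HES4, a repressor of the HES family, averaged 7.60 ± 1.24 and 4.26 ± 1.01 CPM in those groups (log2 fold changes 0.92 and 0.87, edgeR adjusted p = 0.000722 and 0.0022). PCSK1N, the proSAAS inhibitor of prohormone convertase, averaged 12.6 ± 1.38 CPM in medium-dose libraries and 7.38 ± 0.871 CPM in vehicle libraries (log2 fold change 0.80). CD68, a lysosomal glycoprotein that macrophages hold at high level, measured 8.22, 10.6 and 10.5 CPM in medium-dose libraries and 6.37, 5.75 and 6.57 CPM in vehicle libraries (log2 fold change of 0.67 ± 0.16 (SE), edgeR adjusted p = 0.0108), while PTPRC, CD3E and MS4A1 were at 0. MUC5B, CEBPB, CITED4, HES4 and PCSK1N were also called higher at the aconite low dose against vehicle. Their log2 fold changes there were 0.55, 0.48, 0.97, 0.82 and 0.70 in the 20-library fit. MUC5AC and CD68 did not pass in that comparison (log2 fold changes 0.40 and 0.46, edgeR adjusted p = 0.0784 and 0.0733). Several other leading rises cannot be assigned with certainty: UQCRFS1P1 and RPL22P1 are processed pseudogenes with near-identical parent genes, and FMC1-LUC7L2 is a readthrough of 2 neighbouring genes. Transcript GC content was 64.5% for MUC5B, 60.3% for MUC5AC and 66.2% for CEBPB, above the median of 48.6% over the tested genes. It was 73.5% for CITED4, 73.9% for HES4, 74.5% for PCSK1N and 55.4% for CD68. Each gene with a GC content given here kept its call in a fit with an offset for GC content and transcript length. The part of GC content in these rises was not tested beyond that.

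COPS9, a small subunit of the COP9 signalosome (chr2:240126563-240136807, minus strand), measured 25.5, 27.3 and 22.5 CPM in medium-dose libraries and 38.4, 37.6 and 38.7 CPM in vehicle libraries (log2 fold change of -0.61 ± 0.076 (SE), edgeR adjusted p = 0.000316). C1D, a nuclear exosome cofactor (chr2:68041130-68110948, minus strand), measured 16.6, 15.9 and 15.5 CPM in medium-dose libraries and 24.5, 26.1 and 24.6 CPM in vehicle libraries (log2 fold change of -0.65 ± 0.076 (SE), edgeR adjusted p = 0.000223). The groups did not overlap for either gene, again a condition of that naming rule. MZT1, a subunit of the gamma-tubulin ring complex that nucleates microtubules, measured 21.5, 22.4 and 21.1 CPM in medium-dose libraries and 32.7, 32.4 and 31.9 CPM in vehicle libraries (log2 fold change of -0.58 ± 0.068 (SE), edgeR adjusted p = 0.000223). ARL6IP6 averaged 27.5 ± 1.16 CPM in medium-dose libraries and 41.5 ± 1.93 CPM in vehicle libraries (log2 fold change -0.60, edgeR adjusted p = 0.000137). KRT86, a hair-type keratin (chr12:52249300-52309163), measured 14.8, 15.5 and 14.1 CPM in medium-dose libraries and 46.4, 30.0 and 40.8 CPM in vehicle libraries (log2 fold change of -1.40 ± 0.21 (SE), edgeR adjusted p = 0.000808), and its reads can be shared with near-identical keratin genes. The remaining leading falls, CERS6-AS1, SULT1A3, MVP-DT, RPSAP15, PEDS1-UBE2V1, RPSAP58 and RPL4P4, include pseudogenes, antisense transcripts, a readthrough and a gene with a near-identical copy, so their levels are uncertain. Transcript GC content was 31.8% for C1D, 32% for MZT1, 44.3% for ARL6IP6, 57.3% for COPS9 and 61.4% for KRT86. These genes too kept their calls with the GC and length offset, and the part of GC content in their falls was not tested beyond that. Over 17 other settings the log2 fold change ran from -0.68 to -0.40 for C1D and from -0.61 to -0.33 for MZT1. Across doses, COPS9 averaged 27.1 ± 1.81 CPM at the low, 25.1 ± 2.44 at the medium and 24.5 ± 2.60 at the high dose, and C1D 16.7 ± 1.06, 16.0 ± 0.536 and 17.5 ± 2.04 CPM, with no call between doses. COPS9, C1D, MZT1, ARL6IP6 and KRT86 were also called lower at the aconite low dose against vehicle. Their log2 fold changes there were -0.56, -0.59, -0.47, -0.43 and -0.63 in the 20-library fit.

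Of 25 tested cholesterol synthesis and uptake genes, 7 fell by small amounts, none rose and 18 were not called (6.68% of all genes were called lower), with a list median log2 fold change of -0.11. HMGCS1, which makes HMG-CoA, measured 170.0, 169.5 and 166 CPM in medium-dose libraries and 203, 208 and 199 CPM in vehicle libraries (log2 fold change of -0.27 ± 0.041 (SE), edgeR adjusted p = 0.000921). INSIG1, the sterol-sensing anchor of SREBP's escort protein, measured 29.9, 28.3 and 31.4 CPM in medium-dose libraries and 35.7, 35.7 and 38.4 CPM in vehicle libraries (log2 fold change of -0.29 ± 0.057 (SE), edgeR adjusted p = 0.00437). Medium-dose values of both lay below every vehicle value. IDI1, an isopentenyl isomerase, and STARD4, a sterol transporter, fell by 0.31 and 0.27 on the log2 scale (edgeR adjusted p = 0.00202 and 0.00767), and ACAT2 and CYP51A1 were among the other called members. With the GC and length offset STARD4 did not pass. With the 55 libraries, 2 members of the list were called. Among 9 LXR targets, MYLIP, a ubiquitin ligase, fell (log2 fold change of -0.36 ± 0.10 (SE), edgeR adjusted p = 0.0301) and SREBF1 rose (log2 fold change of 0.16 ± 0.046 (SE), edgeR adjusted p = 0.0357). In fatty acid synthesis, 1 of 11 tested genes was called, ELOVL6, a fatty acid elongase (log2 fold change of 0.15 ± 0.048 (SE), edgeR adjusted p = 0.0493). Neither MYLIP nor ELOVL6 passed with DESeq2, and SREBF1 did not pass with library totals alone, with the GC and length offset (log2 fold change 0.047) or with 5 of the 6 libraries left out in turn, all but medium-dose replicate 2. Of 17 other settings, ELOVL6 lost its call in 14, SREBF1 in 10 and MYLIP in 9. With DESeq2 the fatty acid list had none higher and 1 lower.

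Of 15 tested transcripts encoded on mitochondrial DNA, 13 rose and none fell, beside 5.81% of all genes called higher, with a median log2 fold change of 0.39. Without vehicle replicate 2 the list had 6 higher, and without medium-dose replicate 2 or 3 it had 7. MT-ND4, a complex I subunit, measured 9293, 11693 and 10394 CPM in medium-dose libraries and 7343, 6689.9 and 8640.0 CPM in vehicle libraries (log2 fold change of 0.47 ± 0.089 (SE), edgeR adjusted p = 0.00354). MT-RNR2, the large mitochondrial ribosomal RNA, measured 24524, 28869 and 30030.3 CPM in medium-dose libraries and 22541, 20625 and 21846 CPM in vehicle libraries (log2 fold change of 0.36 ± 0.066 (SE), edgeR adjusted p = 0.00308), and MT-ATP6 rose by a log2 fold change of 0.38. MT-ND6 and MT-ND4L did not pass (edgeR adjusted p = 0.0787 and 0.438). No member of the list was called against the low dose, where the median log2 fold change was -0.023, nor between the high and medium doses. Against vehicle, the low dose had 12 of 15 higher and the aconite low dose 5, with medians of 0.395 and 0.311. Over all genes, 5.33% and 4.21% were called higher in those comparisons. With the 55 libraries none was called. The list adds up to 92990 to 112000 CPM in medium-dose libraries and 77850 to 85400 CPM in vehicle libraries.

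Nuclear-encoded respiratory genes and cytosolic ribosomal proteins had calls in the lower direction. Among 24 respiratory chain genes 5 fell and none rose, with a median of -0.11, and among 24 ribosomal protein genes 8 fell and none rose, also with a median of -0.11, beside 6.68% of all genes called lower. The low dose and the aconite low dose, each against vehicle, also had 5 respiratory genes lower and none higher. Ribosomal protein genes had 9 lower at the low dose, and 3 lower and 1 higher at the aconite low dose. Over all genes, 6.84% and 5.5% were called lower in those comparisons. NDUFA9, a complex I subunit, measured 75.01, 75.9 and 78.1 CPM in medium-dose libraries and 90.7, 94.9 and 96.7 CPM in vehicle libraries (log2 fold change of -0.30 ± 0.048 (SE), edgeR adjusted p = 0.00129). UQCRC1, of complex III, had a log2 fold change of -0.22, and ATP5F1B, of ATP synthase, -0.16. RPLP0, of the large ribosomal subunit's stalk, measured 1457, 1543 and 1503 CPM in medium-dose libraries and 1677, 1745 and 1899 CPM in vehicle libraries (log2 fold change of -0.24 ± 0.049 (SE), edgeR adjusted p = 0.00528). RPS19 fell by 0.26 on the log2 scale (edgeR adjusted p = 0.0068). Among 20 ribosome biogenesis genes, 1 rose (PES1, edgeR adjusted p = 0.0471) and none fell. PES1 lost its call in 10 of 17 other settings, among them every fit with a single library left out. Without vehicle replicate 3 the ribosomal list had 2 lower and 1 higher, and without medium-dose replicate 3 it had 4 lower. The respiratory list had 3 lower without vehicle replicate 2 or 3 or medium-dose replicate 3. With a GC and length offset 2 ribosomal protein genes rose and 8 fell, and with library totals alone 1 ribosome biogenesis gene fell and none rose. With the 55 libraries no ribosomal protein gene and 2 respiratory genes were called.

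**Figure D3:**
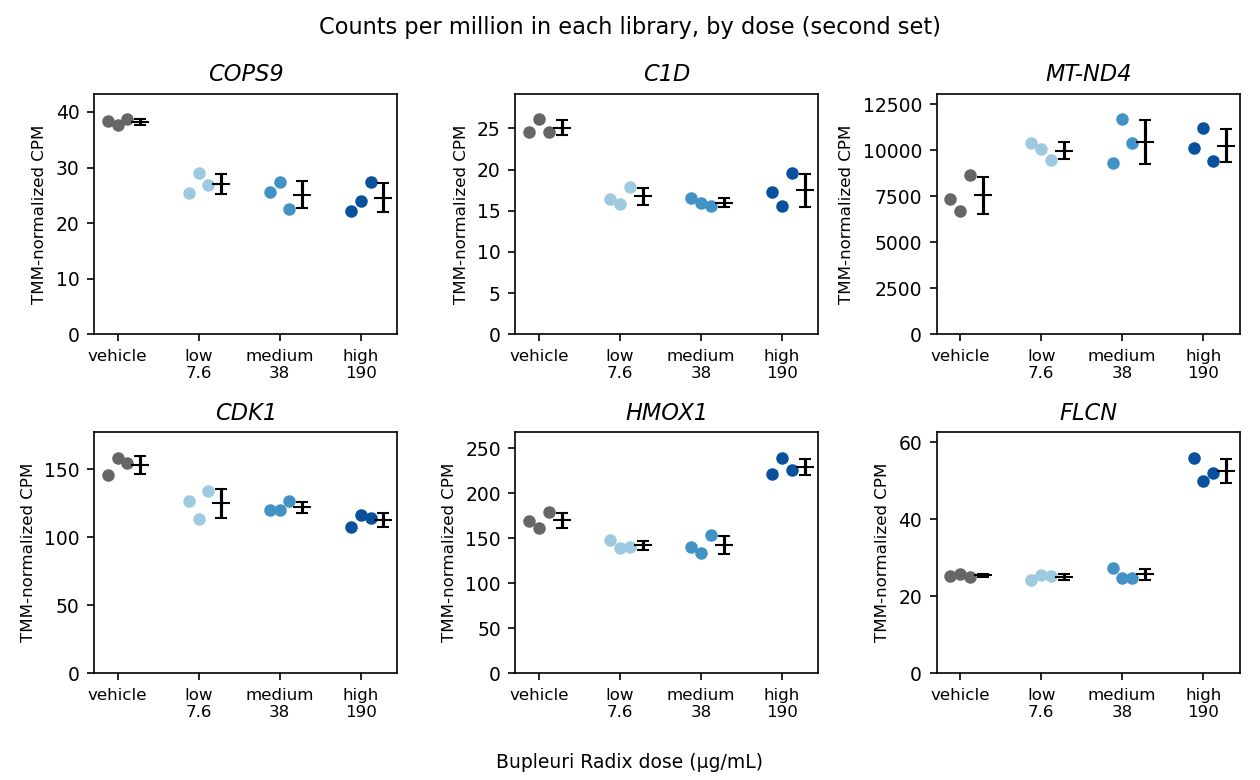
TMM-normalized CPM (y axis, from 0) of 6 further genes in every library by Bupleuri Radix dose in µg/mL (x axis), with points for libraries and the bar for mean ± SD of 3. COPS9, C1D and CDK1 sit below vehicle at every dose, MT-ND4 above it, HMOX1 below vehicle at the low and medium doses and above it at the high dose, and FLCN apart only at the high dose.

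Of the stress-response lists, p53 targets and heat shock genes had mostly lower calls and NRF2 targets had calls in both directions, set beside 5.81% of all genes called higher and 6.68% called lower. The low dose and the aconite low dose, each against vehicle, had 7 of 15 heat shock genes lower and none higher. Each also had 3 of 22 p53 targets lower and none higher, and NRF2 calls in both directions. Over all genes, 6.84% and 5.5% were called lower in those comparisons. In the NRF2 list of 22, 2 rose (FTL and ABCC3) and 4 fell (HMOX1, GCLM, SRXN1 and ME1), with a median of -0.057, ABCC3 not passing with the GC and length offset. HMOX1, heme oxygenase, measured 140.0, 134 and 154 CPM in medium-dose libraries and 169, 162 and 179 CPM in vehicle libraries (log2 fold change of -0.25 ± 0.053 (SE), edgeR adjusted p = 0.00626), and averaged 229 ± 9.12 CPM at the high dose. GCLM, the regulatory subunit of glutathione synthesis, had 249, 261 and 265 CPM in medium-dose libraries and 303, 299 and 308 CPM in vehicle libraries (log2 fold change of -0.23 ± 0.049 (SE), edgeR adjusted p = 0.00626). Of 15 heat shock genes 5 fell and BAG3 rose. DNAJB4, a co-chaperone, measured 36.9, 36.2 and 38.5 CPM in medium-dose libraries and 47.7, 51.6 and 48.0 CPM in vehicle libraries (log2 fold change of -0.40 ± 0.057 (SE), edgeR adjusted p = 0.000722), and HSPD1 fell by 0.27 on the log2 scale. Of 22 p53 targets 6 fell and none rose, among them CDKN1A, the p21 cell cycle inhibitor (log2 fold change of -0.16 ± 0.039 (SE), edgeR adjusted p = 0.0156), and MDM2, the ligase that degrades p53 (log2 fold change -0.19). Each fit without 1 of the 6 libraries gave 0 to 3 p53 targets as lower, 2 to 3 NRF2 targets, 3 to 7 heat shock genes and 1 to 3 ATF4 targets, with 3 heat shock genes without vehicle replicate 2 or medium-dose replicate 3. The amino acid stress targets of ATF4 had 4 of 27 fall and CEBPB rise, with MTHFD2, a mitochondrial folate enzyme, at -0.24. Of 20 ER chaperone and unfolded protein response genes, CREB3L2 and SYVN1 rose and SDF2L1 fell (log2 fold change of -0.49 ± 0.088 (SE), edgeR adjusted p = 0.00278). SLC30A1, the zinc exporter that responds to free zinc, measured 73.0, 78.4 and 76.3 CPM in medium-dose libraries and 95.7, 99.2 and 99.1 CPM in vehicle libraries (log2 fold change of -0.37 ± 0.059 (SE), edgeR adjusted p = 0.00129).

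Of 25 mitotic genes, CENPE and MKI67 rose and CCNB1, CDK1, CDC20 and UBE2C fell, beside 5.81% of all genes called higher and 6.68% called lower, so the rises were a share near that of all genes. CDK1, the mitotic kinase, measured 119.7, 119.7 and 126 CPM in medium-dose libraries and 145, 158 and 155 CPM in vehicle libraries (log2 fold change of -0.33 ± 0.055 (SE), edgeR adjusted p = 0.002). MKI67, the proliferation antigen (chr10:128096659-128126385), measured 717, 647 and 667 CPM in medium-dose libraries and 563, 514 and 439.7 CPM in vehicle libraries (log2 fold change of 0.42 ± 0.074 (SE), edgeR adjusted p = 0.00247). Of 29 DNA replication genes 5 fell and none rose, including PCNA, the polymerase clamp (log2 fold change of -0.24 ± 0.052 (SE), edgeR adjusted p = 0.00636), and TK1, thymidine kinase (log2 fold change -0.21). Without vehicle replicate 2 the replication list had 3 lower. With a GC and length offset the mitotic list had 4 higher and 3 lower.

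The signalling and other lists below are set beside 5.81% of all genes called higher, 6.68% called lower and 12.5% called either way. The MAPK and NF-kB lists had shares of calls near that of all genes. Of 24 MAPK and immediate early genes ETV4 rose (log2 fold change of 0.29 ± 0.054 (SE), edgeR adjusted p = 0.00342) and DUSP5 and NR4A3 fell, NR4A3 not passing with DESeq2. Of 13 YAP and TEAD targets AJUBA fell (log2 fold change of -0.29 ± 0.040 (SE), edgeR adjusted p = 0.000493). Of 19 TGF-beta and mesenchymal genes FN1, fibronectin, rose, with 691, 633 and 727 CPM in medium-dose libraries and 549.1, 534 and 550.4 CPM in vehicle libraries (log2 fold change of 0.33 ± 0.059 (SE), edgeR adjusted p = 0.00278). The glucocorticoid target DUSP1 was the sole called member of 10 and fell by 0.24 on the log2 scale. NF-kB and inflammatory genes had TNFAIP2 higher and CXCL5 lower among 16, with log2 fold changes of 0.16 and -0.20. With the GC and length offset these were 0.060 and -0.067 and did not pass, nor did either gene without vehicle replicate 2 or medium-dose replicate 3. No interferon-stimulated gene of 15 was called, and no coagulation or plasminogen gene of 12, nor any of 5 PXR and CAR targets (ABCC2 at 0.11), all by edgeR's test in the 12-library fit. DESeq2 called ABCC2 higher, 1 interferon-stimulated gene was lower with the GC and length offset, and 2 coagulation genes were lower with no low-count filter or with the 6 libraries alone. In the clock list of 14, BHLHE40 and DBP rose by log2 fold changes of 0.17 and 0.52, and DBP (edgeR adjusted p = 0.0485) did not pass with DESeq2, the GC and length offset, library totals alone or any of the 6 libraries left out. Of 24 glycolysis and hypoxia genes NDRG1 rose and PGK1, PGAM1, ADM and BNIP3 fell, and each fit without 1 of the 6 libraries gave 2 or 3 lower. In the FOXO list of 10, BCL6, a transcriptional repressor, rose (log2 fold change of 0.43 ± 0.086 (SE), edgeR adjusted p = 0.00457). A list drawn from genes that other extracts of the series moved had 4 of 12 higher and 2 lower, and since it was drawn from these data it is not independent evidence of a direction.

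**Figure D4:**
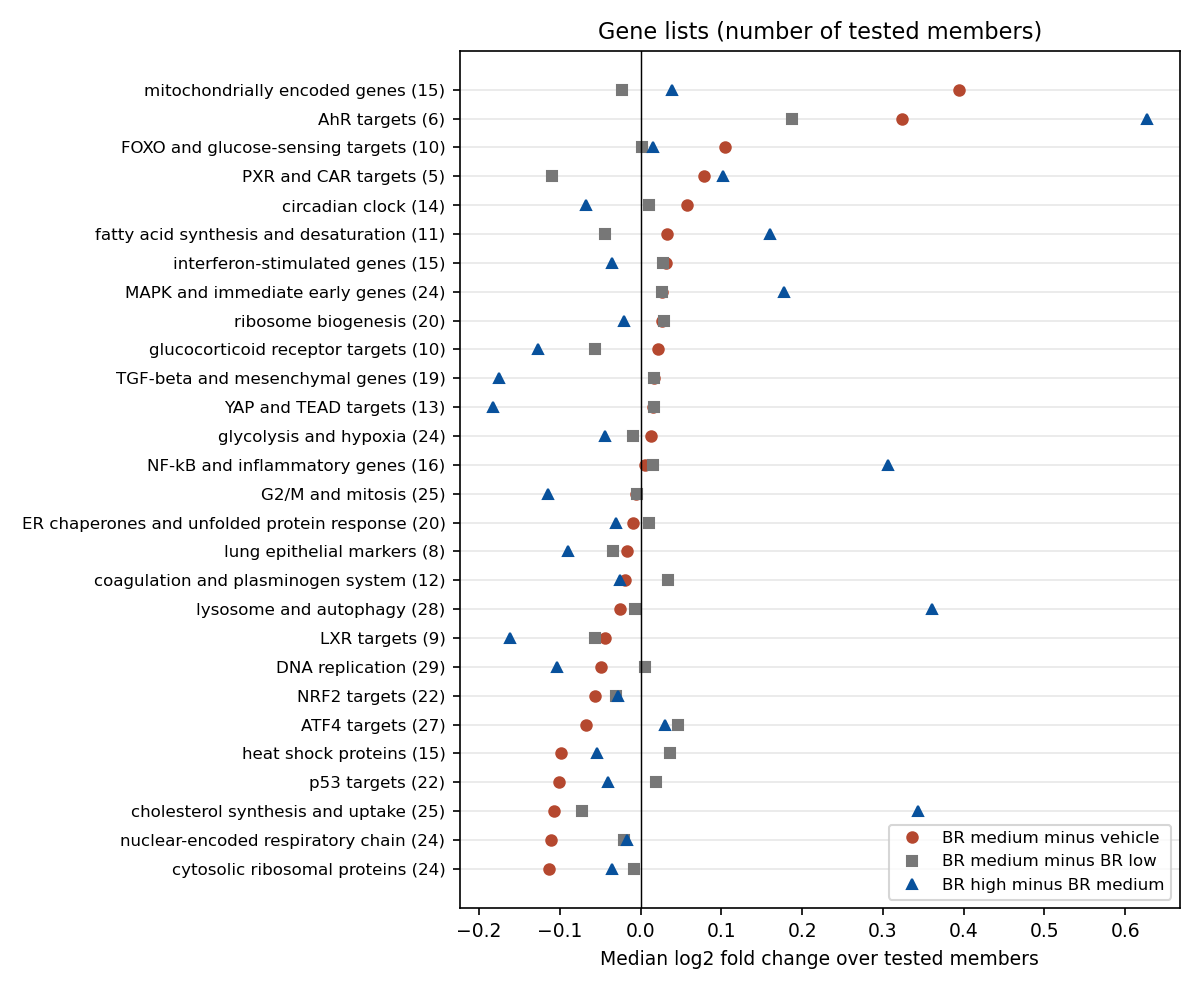
Median log2 fold change over the tested members of each gene list (y axis, number of tested members in brackets) for medium minus vehicle (circles), medium minus low (squares) and high minus medium (triangles). Mitochondrially encoded genes reach 0.39 and AhR targets 0.32 for the medium dose against vehicle, while for high minus medium AhR targets, lysosome and autophagy genes and cholesterol genes reach 0.63, 0.36 and 0.34.

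Against the low dose, the medium dose had no called gene with edgeR, and the median SE of a log2 fold change was 0.076. The 5 genes of lowest p were RHEBP1, CYP1B1, PARLP2, SEMA4G and SLC45A4. CYP1B1 measured 71.8, 72.2 and 72.2 CPM in medium-dose libraries and 62.3, 59.8 and 62.3 CPM in low-dose libraries (log2 fold change of 0.23 ± 0.041 (SE), edgeR adjusted p = 0.251). Its groups did not overlap, beside 7.88% of all tested genes without overlap, but it was picked for its low p in this same comparison. DESeq2 called it (log2 fold change 0.23, adjusted p = 0.0256), as did edgeR with a GC and length offset (adjusted p = 0.0357). SEMA4G, a semaphorin, measured 27.0, 26.3 and 30.6 CPM in medium-dose libraries and 34.6, 33.6 and 34.9 CPM in low-dose libraries (log2 fold change of -0.29 ± 0.063 (SE), edgeR adjusted p = 0.83). SLC45A4, a solute carrier, had 52.3, 50.5 and 50.5 CPM in medium-dose libraries and 58.9, 59.4 and 56.3 CPM in low-dose libraries (log2 fold change of -0.19 ± 0.042 (SE), edgeR adjusted p = 0.83). RHEBP1 and PARLP2 are pseudogenes under 1 CPM, with RHEBP1 at 0 in every low-dose library, and no fold is given for them. None of the 31 lists had a called member in this comparison. A miss of the threshold does not show that the doses act alike.

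The high dose differed from the medium dose, and some genes were called on opposite sides of vehicle at the 2 doses. Between the high and medium doses, 1317 of 16439 genes (8.01%) were called, 808 higher (4.92%) and 509 lower (3.1%). Lysosome and autophagy genes had 23 of 28 members higher and none lower, with a median log2 fold change of 0.36, although at the medium dose against vehicle this list had none higher and 2 lower (ATP6V1H and ATP6V1B2, subunits of the lysosomal proton pump). NEU1, a lysosomal sialidase, measured 39.3, 39.6 and 39.4 CPM in high-dose libraries and 15.2, 13.6 and 14.0 CPM in medium-dose libraries (log2 fold change of 1.47 ± 0.065 (SE), edgeR adjusted p = 8.47e-11). FLCN, folliculin, part of the nutrient-sensing machinery on lysosomes, measured 56.0, 49.9 and 52.1 CPM in high-dose libraries and 27.3, 24.8 and 24.8 CPM in medium-dose libraries (log2 fold change of 1.04 ± 0.054 (SE), edgeR adjusted p = 7.53e-10). RRAGD, a Rag GTPase, measured 7.47, 6.63 and 7.26 CPM in high-dose libraries and 2.48, 2.19 and 2.26 CPM in medium-dose libraries (log2 fold change of 1.62 ± 0.13 (SE), edgeR adjusted p = 1.18e-07). High-dose values lay above every medium-dose value for these 3 genes, a condition of the naming rule for NEU1 and RRAGD. Over all tested genes, 24.9% did not overlap between the high and medium doses. The cholesterol list had 22 of 25 higher and none lower, with INSIG1 at 46.7, 45.2 and 49.9 CPM in high-dose libraries and 29.9, 28.3 and 31.4 CPM in medium-dose libraries (log2 fold change of 0.66 ± 0.055 (SE), edgeR adjusted p = 2.90e-07), and 36.6 ± 1.56 CPM on average in vehicle libraries. INSIG1 and HMOX1, lower than vehicle at the medium dose, were called higher than vehicle at the high dose (log2 fold changes 0.37 and 0.43). SREBF1, higher than vehicle at the medium dose, was called lower than vehicle at the high dose (log2 fold change -0.22). UAP1L1, a sugar-nucleotide enzyme homologue, had 28.4, 25.0 and 24.8 CPM in high-dose libraries and 6.57, 6.75 and 7.21 CPM in medium-dose libraries (log2 fold change of 1.92 ± 0.078 (SE), edgeR adjusted p = 6.35e-11). EGR1, an immediate early transcription factor, was raised by a log2 fold change of 1.66. ABCA1, the LXR-driven sterol exporter, had 5.47, 5.61 and 5.25 CPM in high-dose libraries and 9.65, 11.2 and 10.5 CPM in medium-dose libraries (log2 fold change of -0.94 ± 0.14 (SE), edgeR adjusted p = 0.000132), and KRT4 and FGB, the fibrinogen beta chain, fell by 1.08 and 0.93 on the log2 scale. The AhR list had 4 of 6 higher, MAPK and immediate early genes 12 of 24 higher and 3 lower, and TGF-beta and mesenchymal genes 1 of 19 higher and 9 lower. In the fit over 55 libraries 747 genes were called, and in the fit over all 59 libraries 189. These comparisons share the medium-dose libraries, so no overlap between them is given.

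The NEU1 start region is printed because it holds the letters of the E-box that TFEB and TFE3 are known to bind. The motif searched was TCACGTG on both strands (CACGTGA on the other), present in 3.71% of the 35116 promoter windows, and 7 of the 24 windows (29.2%) of the 19 lysosome and autophagy list members in the table held it. Capitals mark it.
NEU1, chr6:31862772-31863071, minus strand, 1 motif: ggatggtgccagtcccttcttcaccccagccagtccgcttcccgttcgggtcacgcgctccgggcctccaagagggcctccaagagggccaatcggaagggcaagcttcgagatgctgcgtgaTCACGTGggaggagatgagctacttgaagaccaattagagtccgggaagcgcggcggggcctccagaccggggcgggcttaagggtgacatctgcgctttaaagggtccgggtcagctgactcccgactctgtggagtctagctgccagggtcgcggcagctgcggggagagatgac

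Against the aconite preparation's low dose, which shares the library set but not the extract, CYP1B1 had the lowest p. It measured 71.7, 72.0 and 71.9 CPM in medium-dose libraries and 61.7, 56.7 and 60.4 CPM in aconite libraries (log2 fold change of 0.27 ± 0.043 (SE), edgeR adjusted p = 0.0537), with no overlap, and so did not pass in that fit. SCD, the stearoyl-CoA desaturase, measured 964, 920.0 and 921 CPM in medium-dose libraries and 1137, 1045 and 1186 CPM in aconite libraries (log2 fold change of -0.26 ± 0.049 (SE), edgeR adjusted p = 0.121). FADS2, a fatty acid desaturase, had 413, 420.0 and 419 CPM in medium-dose libraries and 462, 502 and 485 CPM in aconite libraries (log2 fold change of -0.21 ± 0.039 (SE), edgeR adjusted p = 0.121). Values of SCD and FADS2 lay below every aconite value, and with DESeq2 both, CYP1B1 and the readthrough BLOC1S5-TXNDC5 were called. CYP1B1, SCD and FADS2 were picked for their low p in this comparison, so their lack of overlap is not separate evidence. The share of all genes without overlap was not computed for this comparison.

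Fold changes against vehicle followed transcript base composition. Genes higher at the medium dose had a median GC content of 55.7% and lower ones 42.1%, beside 48.6% over all 16332 tested genes with a value. The rank correlation of GC content with log2 fold change across genes, which are not independent, was 0.29 for the medium dose against vehicle and -0.037 against the low dose. For the aconite low dose against vehicle it was 0.36, and for the low dose of this extract 0.31, while for the medium dose against the aconite low dose it was -0.12. Among the fifth of genes with the lowest GC content, 14.4% were called lower against vehicle, and among the fifth with the highest, 11.3% were called higher. A fit with a GC and length offset called 1956 genes, 1326 of them among the 2053. Library set and extract cannot be told apart in this trend.

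**Figure D5:**
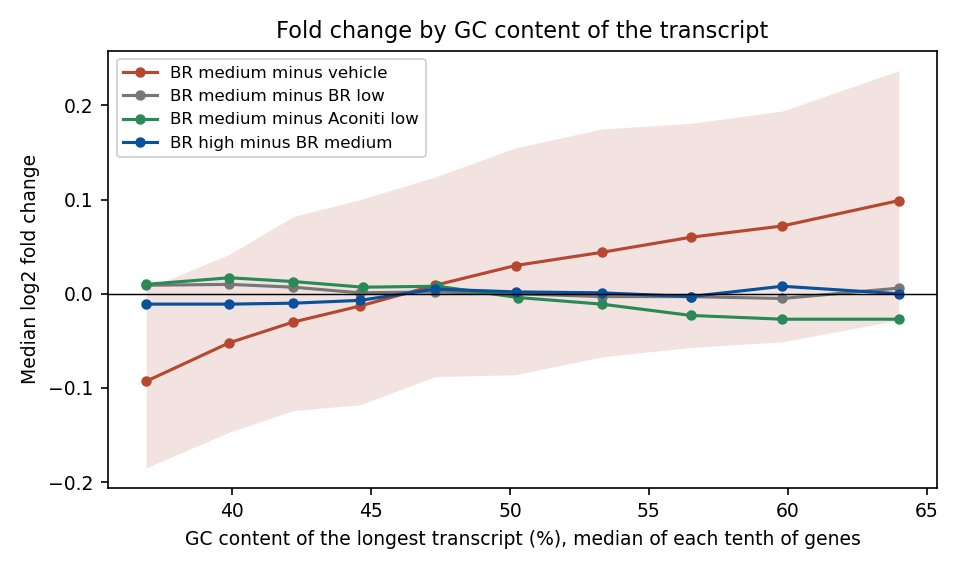
Median log2 fold change (y axis) of genes in 10 equal bins of transcript GC content (x axis, % GC), for 4 comparisons, with the band showing the middle quartiles of medium minus vehicle. The medium minus vehicle line runs from -0.093 in the lowest bin to 0.099 in the highest, while medium minus low stays between -0.005 and 0.01.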

How the data were processed

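The deposited table holds expected counts per gene for 60675 genes, made by the authors with RSEM 1.3.3 after Trim Galore 0.6.5 and STAR 2.7.3a on GRCh38, per the submitters' processing notes. Among genes with any count in the 59 libraries, 84.4% of values are whole. The 210 columns of other series were not used. Counts were rounded and tested with edgeR 4.0.16 (R 4.3.3, limma 3.58.1), with TMM scaling, a minimum count of 10 and Benjamini-Hochberg adjustment. The fit held 12 libraries in 4 groups (16439 genes, 8 residual degrees of freedom), and the aconite comparison 20 libraries (17285 genes). DESeq2 1.42.0 was an alternative. Members and gene lists were chosen with earlier results of these data known. Named genes are the 12 largest called rises and falls against vehicle (6 between high and medium dose) with no overlap and a mean of at least 5 CPM, the 5 of lowest p where fewer than 5 were called, and up to 4 called members of each of 31 lists, or the most abundant member where none was called. FLCN, CYP1A1, NQO1 and the other members named beside these were chosen after their values were seen. Coordinates and GC content come from GENCODE 29. Some named genes are not reported here. The code was tested on simulated data. Replicates of a group differed by more than sampling noise. Their number and low counts limit the precision.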

Additional observations from a re-analysis of the deposited data

How the results depend on the processing

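For the medium dose against vehicle, DESeq2, RLE size factors, library totals alone, no low-count filter, a minimum count of 50, a GC and length offset, the 6 libraries alone and the 20-library fit gave between 1912 and 2417 calls beside 2053. Library totals alone put 36.6% of calls higher, beside 46.5%. All 59 libraries gave 1 call (PAFAH1B2; 1320 genes at an unadjusted p below 0.05), and 55 libraries, without the 4 of highest antisense share, gave 608, with 30.8% higher, 595 of them among the 2053. Leaving out single libraries gave 804 to 1613. The cause was not tested. Replicate numbers did not pair the samples (correlations of 0.007, -0.042 and -0.004); the fit with the replicate block called 2254 genes, and no call lost under it is read as weaker. The offset and the 55 libraries were chosen after seeing the data. Of 97 named genes, 97 lost their call over 59 libraries and 61 over 55; none reversed. High against medium gave 189 with all 59 libraries and 747 with 55. Medium against low, with 0 calls, gave 2 with DESeq2, 95 with no low-count filter and 1 with the offset. Medium against the aconite low dose, with 0 calls, gave 4 with DESeq2, 126 with no filter, 1 with a minimum count of 50, 2 with the offset, 1 from the 6 libraries alone, and 0 to 1 without single libraries. Depth limits genes of few counts, such as CYP1A1.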
